A study of Homo sapiens with 6 samples.

Results

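The 5 genes described here encode kinases and cyclins that act in the G1 phase of the cell cycle: the kinases CDK4 and CDK6 and the D-type cyclins CCND1, CCND2 and CCND3. They were chosen by name, as the rows of the gene table whose Ensembl identifier maps to these 5 symbols, out of 58825 genes in the table. The choice was made with earlier results of these data known. RNA was sequenced from SKOV3, a human ovarian cancer cell line, after transient transfection with siRNA against EIF5A2 (si-EIF5A2, 3 libraries) or with a negative control siRNA (NC, 3 libraries). The labels list no engineered allele in either group, and cells were collected after 48 h, a time given only in the description of the series. EIF5A2 encodes an isoform of the translation factor eIF5A. A single siRNA in a single line was compared with a single control, so effects of losing EIF5A2 and effects of this siRNA on other transcripts cannot be told apart. No label says that the replicates were separate cultures, so the p-values measure the spread between these libraries, which may be technical.

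D-type cyclins are made in response to growth signals and bind CDK4 or CDK6. The active kinases phosphorylate the retinoblastoma protein RB1, which releases E2F transcription factors and lets genes of DNA replication be transcribed. Proteins of the INK4 family block CDK4 and CDK6 directly, while proteins of the CIP/KIP family bind the assembled cyclin complexes. CCND1 is amplified or overexpressed in many carcinomas, and inhibitors of CDK4 and CDK6 are used in the clinic.

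The promoter of CDK4 is shown because CDK4 had the largest difference between the groups among the members, and because it carries several copies of the E-box CACGTG, the motif bound by MYC with its partner MAX and by related factors. The 250 bases before the RefSeq start site lie at chr12:57752311-57752560 on the minus strand of GRCh38.p14, inside the longer span that the GENCODE annotation gives for the gene. Capitals mark the E-boxes.
CDK4: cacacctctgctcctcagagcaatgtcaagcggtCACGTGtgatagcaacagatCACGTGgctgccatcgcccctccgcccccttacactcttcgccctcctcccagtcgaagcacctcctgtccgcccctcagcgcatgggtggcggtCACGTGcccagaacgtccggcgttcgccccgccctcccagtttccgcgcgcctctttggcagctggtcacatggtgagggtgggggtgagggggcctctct

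The 3 E-boxes begin 216, 196 and 101 bases upstream of the start site. Among 35116 RefSeq windows of the same kind (250 bases before to 50 after a start), 7.26% held at least 1 E-box and 0.094% held 3 or more. These shares are description only: the CDK4 promoter was shown in part for its E-boxes, and several motifs were searched. Windows of like GC content were not compared. Windows were listed for CDK4, CDK6 and CCND3. Of the 2 windows of CDK6, 1 held an E-box, 30 bases after the start, and none of the 3 windows of CCND3 held one. On either strand, none of the windows of these 3 genes held an E2F octamer (TTTCCCGC, TTTCGCGC, TTTGCCGC or TTTGGCGC, found in 3.32% of all windows), an AP-1 site (TGANTCA, 7.71%), a CRE (TGACGTCA, 1.85%) or a CHR (TTTGAA, 15.2%). A GC box (GGGCGG, in 45.0% of all windows) was present in a window of each of the 3 genes. These are matches of letters and carry no information on binding in SKOV3.

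The targeted transcript was low in the libraries labelled as knockdown. EIF5A2 had 2030, 2108 and 1404 estimated counts in NC and 141, 211 and 205 in si-EIF5A2, which is 12.7% of the NC level in counts scaled to library size (CPM). The libraries held 46900204 to 74142267 estimated counts in all, with each sequenced fragment worth about 3.86 counts. A gene at 0 counts could still hold 3 fragments, or 0.159 to 0.246 CPM depending on the library, and this limit covers counting error only. The epithelial keratins KRT8 (349 to 659 CPM) and KRT18 (297 to 457 CPM) were abundant, while KRT19 was scarce (2.24 to 3.85 CPM). Of 9 epithelial markers, 2 (KRT8 and PAX8) were called lower. MUC16 was at 0, EPCAM near 1.5 CPM, CD24 at or under 5.11 CPM and WT1 at or under 3.74 CPM. The leukocyte genes PTPRC and CD3E were at 0. Of 4 fibroblast markers none was called, with COL1A1 between 0.0638 and 1.98 CPM and the others at or near 0. Of the 3 endothelial markers, CDH5 was the only one called by edgeR, at 25.9 to 30.0 CPM in NC against 0.563 to 0.977 CPM in si-EIF5A2. PECAM1 was scarce and lower too, at 1.62 to 2.04 CPM in NC against 0 to 0.667 CPM in si-EIF5A2, but not called (adjusted p = 0.0941, edgeR). VWF lay at or under 0.334 CPM. With DESeq2, 2 of the 3 endothelial markers were called lower. Summed over each list, endothelial markers stood at 27.8 to 32.1 CPM in NC and 0.958 to 1.56 CPM in the knockdown, epithelial markers at 1139 to 1272 and 761 to 957 CPM, and fibroblast markers at 0.0638 to 1.15 and 0.861 to 2.44 CPM. The part of these marker differences in the results on the cell cycle genes was not tested.

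Of the 5 genes, 4 were abundant enough to test and 3 were called, each lower in si-EIF5A2. Calls required a fold change above 1.5 together with an adjusted p below 0.05. Over all 16208 genes tested, 24.6% were called, 13.6% lower and 11.1% higher, so calls were frequent in this comparison. The 3 called members were CDK4, CCND3 and CCND1, in order of the size of their fall, and CDK6 was not called. In those 3 the groups did not overlap, as was the case for 51.2% of all genes tested. In bulk RNA, fewer cells in a given state and less RNA per cell cannot be told apart.

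**Figure D1:**
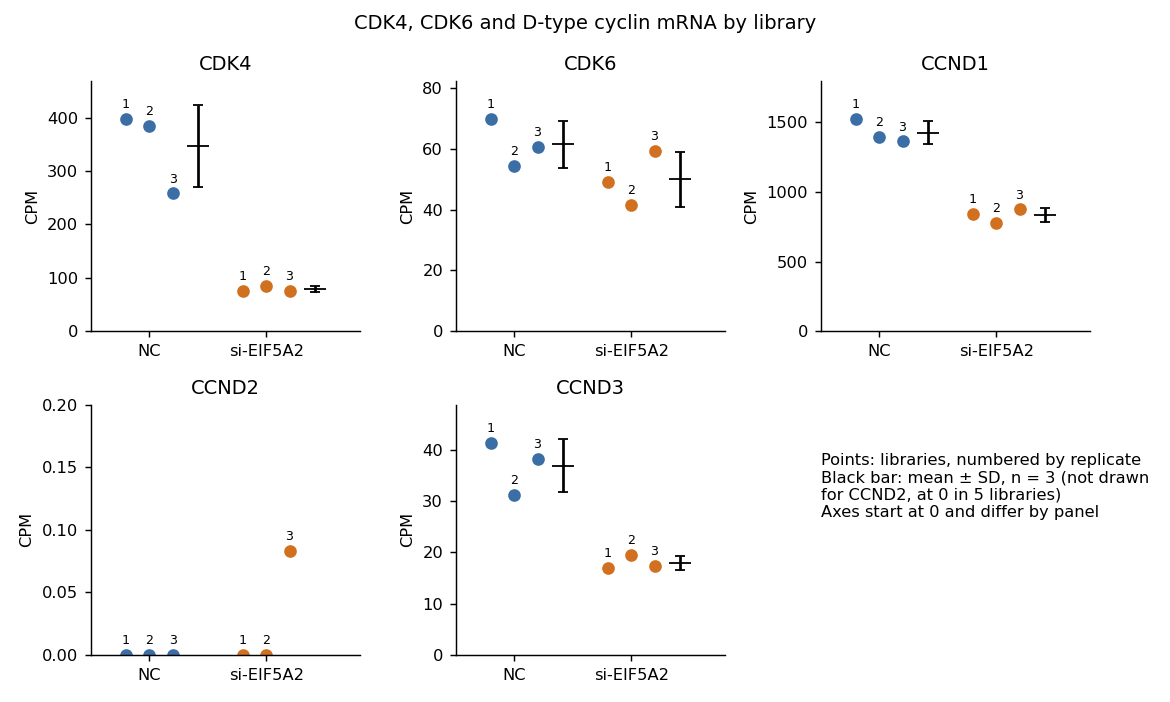
Level of the 5 genes in CPM in each of the 6 libraries, numbered by replicate, with the mean ± SD of each group (n = 3). CDK4, CCND1 and CCND3 are lower in every si-EIF5A2 library than in any NC library, the CDK6 groups overlap, and CCND2 is at 0 in 5 libraries.

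CDK4, the catalytic partner of the D-type cyclins in most epithelial cells, fell the most. Its level was 397, 385 and 258 CPM in NC against 75.4, 85.2 and 76.1 CPM in si-EIF5A2. The NC libraries were spread widely, with NC replicate 3 well under the other two, while the si-EIF5A2 libraries lay close together, and the lowest NC library was still far above the highest si-EIF5A2 library. The level in si-EIF5A2 was 22.8% of that in NC, a log2 fold change of -2.14 (SE 0.17, 95% interval -2.54 to -1.73, n = 3 per group, adjusted p = 1.04e-04, edgeR quasi-likelihood test, adjusted by Benjamini-Hochberg). CDK4 (ENSG00000135446) lies on chromosome 12 at 57747727 to 57756013, minus strand, of GRCh38. Its exons share 1369 bases with those of TSPAN31 on the opposite strand, and whether the libraries kept strand is not given in the sources used here. TSPAN31, a tetraspanin gene, had 30.0, 13.3 and 18.1 CPM in NC against 31.3, 23.0 and 23.9 CPM in si-EIF5A2, so its groups overlapped. It received far fewer counts than CDK4 in every NC library. The gap was smaller in si-EIF5A2, with 1598, 1200 and 1145 counts for TSPAN31 against 3854, 4449 and 3649 for CDK4. Whether reads of TSPAN31 contribute to the CDK4 counts was not tested.

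CDK6, the second kinase of the pair, did not pass the test. Its level was 69.8, 54.4 and 60.6 CPM in NC against 49.2, 41.5 and 59.4 CPM in si-EIF5A2. The groups overlapped, since si-EIF5A2 replicate 3 lay above NC replicate 2. The log2 fold change was -0.30 (SE 0.15, adjusted p = 0.159, edgeR), and its 95% interval of -0.65 to 0.05 reaches from a fall past the calling limit to a slight rise. CDK6 (ENSG00000105810, chromosome 7, 92604921 to 92836594, minus strand) shares 81 exon bases with the antisense transcript CDK6-AS1.

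CCND1, the D-type cyclin that responds to mitogens in most epithelial cells, was the most abundant of the 5 genes per length and fell to 58.3% of its NC level. It stood at 1521, 1393 and 1362 CPM in NC against 844, 776 and 874 CPM in si-EIF5A2. Both groups were tight compared with the distance between them. The log2 fold change was -0.78 (SE 0.08, 95% interval -0.96 to -0.60, adjusted p = 1.77e-04, edgeR). CCND1 (ENSG00000110092) lies on chromosome 11 at 69641087 to 69654474, plus strand, and shares 497 exon bases with LTO1 on the opposite strand, whose log2 fold change was 0.13 (adjusted p = 0.757).

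CCND3, the D-type cyclin best known from lymphoid cells, fell to 48.5% of its NC level from a much lower level per length. Its level was 41.3, 31.2 and 38.2 CPM in NC against 16.9, 19.4 and 17.3 CPM in si-EIF5A2. The highest si-EIF5A2 library lay well under the lowest NC library. The log2 fold change was -1.05 (SE 0.13, 95% interval -1.34 to -0.75, adjusted p = 4.73e-04, edgeR). CCND3 (ENSG00000112576) lies on chromosome 6 at 41934933 to 42050357, minus strand.

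CCND2, the third D-type cyclin (ENSG00000118971, chromosome 12, 4273772 to 4305350, plus strand), was not detectable at this depth. It had 0 counts in 5 libraries and 4 counts, about the worth of 1 fragment, in si-EIF5A2 replicate 3. It was not tested, and no fold change is given because both groups are under the limit that 3 fragments set. Its exons share 989 bases on the same strand with a longer gene model that was at 0 in every library.

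**Figure D2:**
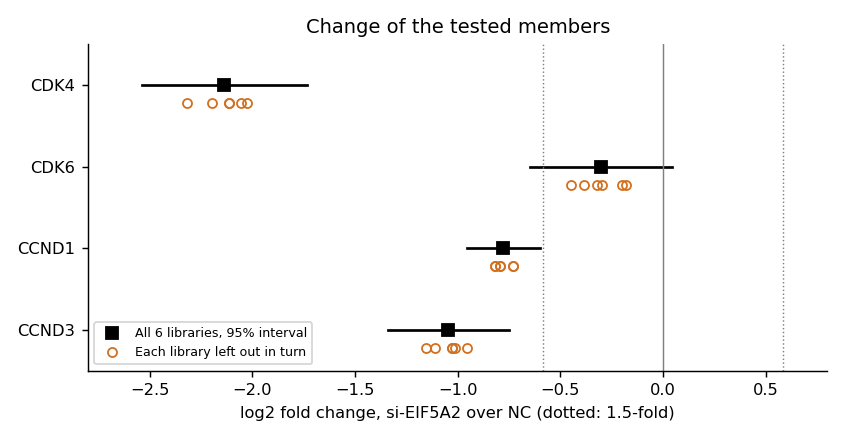
Log2 fold change of si-EIF5A2 over NC for the 4 tested genes from all 6 libraries with its 95% interval (squares), and after dropping 1 library at a time (circles); dotted lines mark a fold change of 1.5. The intervals of CDK4, CCND1 and CCND3 lie under 0, and that of CDK6 reaches 0.05.

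Ratios between members within a library do not depend on how libraries are scaled to each other, and they tell whether the genes changed to a different extent. With 3 libraries against 3, the smallest p an exact permutation test can give is 0.10, and over the 6 pairs the smallest adjusted p was 0.12, so none could pass the threshold. The log2 ratio of CDK4 to CDK6 counts was 2.51, 2.82 and 2.09 in NC and 0.62, 1.04 and 0.36 in si-EIF5A2, a 3.49-fold lower ratio without overlap of the groups (exact permutation p = 0.10, 2-sided). Relative to CCND1, CDK4 was 2.52-fold lower, and relative to CCND3 it was 2.10-fold lower, again without overlap (exact permutation p = 0.10 for each). In si-EIF5A2 the log2 ratio of CDK4 to CCND3 was 2.16, 2.13 and 2.14, a much narrower range than the 2.76 to 3.63 of NC. The ratio of CDK6 to CCND1 was 1.38-fold higher and that of CDK6 to CCND3 was 1.66-fold higher, again without overlap. The ratio of CCND1 to CCND3 was 1.20-fold higher with overlapping groups (exact permutation p = 0.20), so unequal change of the 2 expressed D-type cyclins was not shown. The other pairs did not pass the threshold either. All 6 pairs are built from the same 4 genes, and how often ratios of other gene pairs lack overlap was not examined.

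Levels of different genes were compared per length of merged exons, and scaled to a common total per library (TPM). In NC the order was CCND1 (815 ± 30.2 TPM, SD, n = 3), CDK4 (302 ± 61.8), CCND3 (17.6 ± 2.34) and CDK6 (13.9 ± 1.55). In si-EIF5A2 it was CCND1 (501 ± 43.4), CDK4 (72.3 ± 2.84), CDK6 (11.9 ± 2.36) and CCND3 (8.94 ± 0.412). CCND1 and CDK4 held the top of the order in all 6 libraries, while the neighbours CCND3 and CDK6 changed places. CCND3 was above CDK6 in all 3 NC libraries, with a ratio of CDK6 to CCND3 of 0.793 ± 0.0375, and the ratio in si-EIF5A2 was 1.34 ± 0.311, close to 1 in replicate 2 (9.51 TPM for CDK6 and 9.41 TPM for CCND3). That exchange depends on the length used: with the longest coding transcript in place of merged exons, the ratio of CDK6 to CCND3 was 0.345 in NC and 0.583 in si-EIF5A2, under 1 in both groups.

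CCND1 supplied nearly all D-type cyclin transcripts, 97.9% ± 0.242 in NC and 98.2% ± 0.239 in si-EIF5A2 (exact permutation p = 0.20), and CCND3 supplied almost all of the rest. CDK4 supplied 95.7%, 96.5% and 94.3% of the CDK4 and CDK6 transcripts in NC and 85.6%, 88.8% and 83.2% in si-EIF5A2. CDK4 thus remained the more abundant kinase transcript in every library, at a lower share without overlap of the groups (exact permutation p = 0.10, the smallest possible). Summed over the family, D-type cyclins stood at 833 ± 31.6 TPM in NC and 510 ± 43.0 TPM in si-EIF5A2, and CDK4 plus CDK6 at 316 ± 61.8 and 84.2 ± 1.25 TPM. There were 2.46, 2.33 and 3.34 cyclin D transcripts for each kinase transcript in NC and 6.39, 5.41 and 6.37 in si-EIF5A2, so the groups did not overlap (exact permutation p = 0.10). These are transcripts, and protein was not measured in these files.

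**Figure D3:**
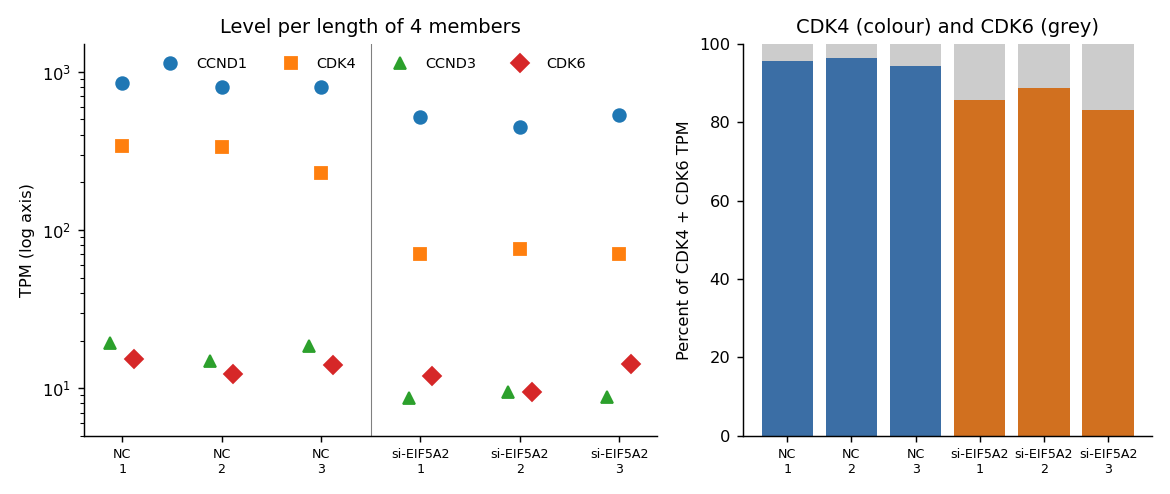
Left, level per length (TPM, log axis) of the 4 tested genes in each library; right, CDK4 as a percent of CDK4 plus CDK6 TPM (blue NC, orange si-EIF5A2, grey CDK6). CDK4 makes up 94.3% to 96.5% in NC and 83.2% to 88.8% in si-EIF5A2.

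The surrounding pathway was described with 11 lists by role, holding 121 genes, of which 116 were tested and 52 were called, beside 24.6% called among all genes tested. The lists were chosen with earlier results of these data known, so a count above that share may come from the choice, and no excess was tested. Several counts given below are near 24.6% for lists of their size. These are 1 of 3 for the RB family, 2 of 5 for CDK inhibitors, 2 of 6 for CDK activation and chaperones, and 2 of 10 for the ERK route. Those of 4 of 10 E2F and DP factors and 7 of 19 transcription factors were moderately above it. The median log2 fold change over all genes tested was -0.01. Of the 7 CDK inhibitors, 5 were tested and 2 were called, both lower, with a list median of -0.90. CDKN2C, an INK4 inhibitor of CDK4 and CDK6, went from 12.4 ± 1.22 to 2.95 ± 0.609 CPM (log2 fold change -2.07, SE 0.19). CDKN1C, the CIP/KIP inhibitor p57, had 12.5, 11.3 and 9.21 CPM in NC against 4.50, 3.60 and 4.61 CPM in si-EIF5A2 (-1.37). The p21 gene CDKN1A stood at 878 ± 96.8 CPM in NC against 1023 ± 39.4 CPM in si-EIF5A2, and was not called (log2 fold change 0.22, adjusted p = 0.0938, edgeR). The p27 gene CDKN1B stood at 68.9 ± 2.10 and 66.4 ± 4.18 CPM (-0.05) and was not called either. CDKN2D had a log2 fold change of -0.90 that was not called, and si-EIF5A2 replicate 2 stood apart, with 1.26 CPM beside 9.41 and 8.36 CPM in the other two. The p16 gene CDKN2A was at 0 in NC and at 0.0783 CPM or less in si-EIF5A2, and CDKN2B was at 0 throughout.

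Downstream of the kinases, RB1, their main substrate, was called lower. It had 41.4, 64.0 and 47.7 CPM in NC against 22.2, 17.2 and 23.0 CPM in si-EIF5A2, without overlap (log2 fold change -1.29, SE 0.19, adjusted p = 0.00131, edgeR). The related RBL1 (-0.43) and RBL2 (0.22) were not called, so 1 of 3 members of the RB family was called and the list median was -0.43. Of 10 E2F and DP factors, 3 were lower and 1 higher, with a list median of -0.37. The activator E2F1 went from 14.5 ± 1.83 to 4.70 ± 1.04 CPM (-1.63, SE 0.19), and E2F7, a repressor of the family, rose from 77.5 ± 3.79 to 130 ± 9.02 CPM (0.75). E2F2 (-3.27) and E2F8 (-2.30) were lower too but scarce, at 2.51 CPM or less in every library, and each lost its call on dropping any of 4 different libraries, with log2 fold changes that stayed between -3.39 and -3.07 for E2F2 and between -2.42 and -2.24 for E2F8. Without NC replicate 3, 2 of the 10 factors were called. Of 17 genes induced by E2F at the start of replication, 15 were called lower and none higher, with a list median of -1.65. Those with the largest falls were CCNA2, cyclin A2 (-3.46), ORC1, a subunit of the origin recognition complex (-3.26), and CDT1, which helps to load the replicative helicase (-2.77). The other two, MCM6 and POLA1, were under the limit on fold change, at -0.36 and -0.41.

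The next cyclin and kinase in G1 moved in both directions. CCNE1, cyclin E1, rose from 8.15 ± 0.109 to 28.1 ± 1.88 CPM (log2 fold change 1.78, SE 0.10), while its paralog CCNE2 fell from 4.95 ± 0.339 to 0.821 ± 0.0565 CPM (-2.59). Their kinase CDK2 (-0.66, not called without NC replicate 2) and the phosphatase that activates it, CDC25A (-1.22), were lower, so all 4 genes of this list were called. Among the 19 other CDKs, 7 were lower and 2 higher, with a list median of -0.21. The mitotic kinase CDK1 went from 51.9 ± 3.45 to 10.2 ± 1.56 CPM (-2.35), and CDK19 (-1.71), a Mediator kinase, and CDK5 (-1.46), best known from neurons, also fell. The other Mediator kinase CDK8 rose (0.96), as did CDK14 (1.46). Of the 23 other cyclins, 22 were tested, 7 were lower and 3 higher, with a list median of -0.14. The mitotic cyclins CCNB2 (-2.75) and CCNB1 (-2.72) were among the lower ones, and CCNE1, CCNC (0.73, not called without any one of 5 libraries) and CCNJ (0.72) were the higher ones.

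**Figure D4:**
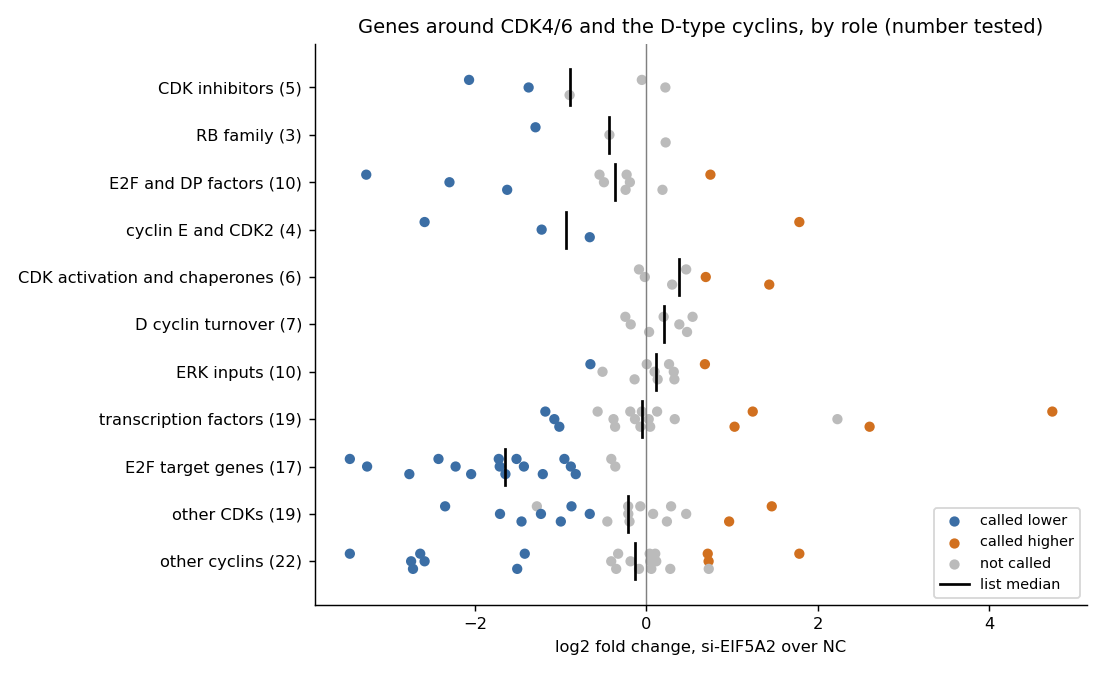
Log2 fold change of si-EIF5A2 over NC for the tested genes of 11 lists by role, with each list's median (black bars). Called genes are blue (lower) or orange (higher); 15 of 17 E2F target genes are called lower, and 0 of 7 genes of D cyclin turnover are called.

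Upstream of the members, the called genes moved in both directions. None of the 7 tested genes of D-type cyclin turnover was called by edgeR, with a list median of 0.20. GSK3B, a kinase that marks cyclin D1 for export and degradation, was higher by 0.54 (adjusted p = 9.05e-04) and FBXO31, part of a ubiquitin ligase for cyclin D1, by 0.47, both under the limit on fold change. The remaining tested genes of this list went both ways: DYRK1A (0.38), USP22 (0.20), AMBRA1 (0.03), DYRK1B (-0.18) and FBXO4 (-0.25). Among 6 genes of CDK activation and chaperones, 2 were higher and none lower (list median 0.38): HSP90AA1, which encodes an HSP90 chaperone, rose from 751 ± 52.8 to 2028 ± 44.5 CPM (1.43), and CDC37, the cochaperone that brings kinases such as CDK4 to HSP90, from 192 ± 17.8 to 310 ± 9.61 CPM (0.69). Of 10 genes of the ERK route from RAS to MAPK, MAPK3 was lower (-0.65) and BRAF higher (0.68), with a list median of 0.11, and neither was called without si-EIF5A2 replicate 1.

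Of 20 transcription factors known to act on genes of D-type cyclins or on CDK4, 19 were tested, 3 were lower and 4 higher, with a list median of -0.05. EGR1, an immediate early factor, rose from 1.88 ± 0.178 to 50.4 ± 4.81 CPM (log2 fold change 4.74, SE 0.13), and FOS, an AP-1 subunit, from 1.52 ± 0.389 to 9.19 ± 2.18 CPM (2.60). STAT3 (1.24) and ETS2 (1.03) also rose. The AP-1 subunit FOSL1 fell from 1185 ± 93.2 to 562 ± 7.02 CPM (-1.08), and LEF1 (-1.18, not called without NC replicate 3 or without si-EIF5A2 replicate 2), a factor of the WNT pathway, and FOXO1 (-1.02) were lower. MYC had 15.5, 12.7 and 15.0 CPM in NC against 175, 13.9 and 14.1 CPM in si-EIF5A2. Its log2 fold change of 2.23 (adjusted p = 0.214, edgeR) came from si-EIF5A2 replicate 1 and was -0.05 without that library.

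The genes whose profile over the 6 libraries was most like that of each called member were found by the root mean square difference of log2 CPM centred on the NC mean, among tested genes that averaged 10 CPM or more. For CDK4 they were NSD2 (0.0822), CDKN2AIPNL (0.133) and AURKA (0.167). For CCND1 they were TMEM39B (0.0487), ZNF592 (0.0533) and WASL (0.0567), and for CCND3 they were FBLN1 (0.0541), KPNA2 (0.0789) and STARD3 (0.0833). The values are log2 differences over 6 libraries that share the same 2 groups, and they describe likeness of the profile only.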

How the data were processed

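The authors sequenced paired-end mRNA libraries and estimated gene levels with StringTie. They deposited estimated counts per gene as whole numbers, not normalized, for the 6 libraries. The submitters' processing notes name Bowtie 0.12.2 and mouse genome builds, although the identifiers are human, so the build and annotation used are not given in the sources used here. Each fragment was worth about 3.86 counts. Symbols matched 58472 of 58825 identifiers. Positions and exon lengths came from GENCODE release 29 (GRCh38), and promoters from RefSeq (GRCh38.p14).

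All 6 libraries were fitted with edgeR 4.0.16 (R 4.3.3): filterByExpr, TMM, robust quasi-likelihood fit with condition as the only term, and Benjamini-Hochberg adjustment over 16208 genes. Calls required a fold change above 1.5 together with an adjusted p below 0.05. Standard errors are on the log2 scale. Ratios and shares were compared with exact 2-sided permutation tests (SciPy 1.17.1). The script was tested on simulated data. Library totals of 46900204 to 74142267 estimated counts correspond to about 12150312 to 19207841 fragments. The number of fragments, not of estimated counts, sets the counting precision.

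The members and gene lists were chosen with earlier results of these data known. Genes named were the 5 members, EIF5A2, CDKN1A, CDKN1B, CDKN2A, RB1, E2F1 and MYC, up to 3 called genes with the largest rise and 3 with the largest fall in each list, the 3 most similar profiles for each called member, and neighbouring or overlapping genes. Genes named beyond this rule were chosen after their values were seen. Alternatives covered normalization, low-count filters, DESeq2 1.42.0, count scale, thresholds, gene length, a pseudocount of 1 count, a replicate block and leaving out each library.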

Additional observations from a re-analysis of the deposited data

How the results depend on the processing

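CDK4, CCND1 and CCND3 were lower and called, and CDK6 was lower and not called, under every alternative normalization, filter, count scale and test and without each library in turn. Leaving out 1 library gave log2 fold changes of -2.32 to -2.03 for CDK4, -0.45 to -0.18 for CDK6, -0.82 to -0.73 for CCND1 and -1.15 to -0.96 for CCND3, and 3638 to 3907 genes called. Over the alternatives the adjusted p of CDK6 lay between 0.0518 and 0.388. With the threshold of the study's methods (unadjusted p under 0.05, fold change over 2), CCND1 at -0.78 was no longer called and 2370 genes were called in place of 3992. With no limit on the fold change 5974 genes were called, and DESeq2 called 4346. For MYC, leaving out 1 library gave log2 fold changes of -0.0534 (without si-EIF5A2 replicate 1) to 2.71 (without si-EIF5A2 replicate 2). With the longest coding transcript as length, the difference in D-type cyclins per kinase transcript was 2.68 in place of 3.35, and the difference in the CCND1 share was 0.70 in place of 0.34 percentage points.

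Deviations of same-numbered libraries from their group means correlated at -0.07, 0.01 and 0.003, so no shared deviation was seen. Whether same-numbered libraries were prepared together is not given in the labels, and these values cannot decide it. With a replicate block the log2 fold changes were -2.11 for CDK4, -0.31 for CDK6, -0.78 for CCND1 and -1.04 for CCND3, and 3731 genes were called. Some calls on other named genes were lost. CCNC lost its call with no low-count filter and without any one library other than NC replicate 1 (adjusted p 0.0777 to 0.102). E2F2 lost it with the replicate block, without any one NC library and without si-EIF5A2 replicate 1, at log2 fold changes of -3.54 to -3.07. E2F8 lost it without any one NC library and without si-EIF5A2 replicate 3, at -2.42 to -2.24. Calls were also lost for LEF1 without NC replicate 3 or si-EIF5A2 replicate 2, CDK2 without NC replicate 2 (-0.49), and BRAF (0.57) and MAPK3 (-0.57) without si-EIF5A2 replicate 1, which left 0 called genes on the ERK route. Without NC replicate 3, 2 of the E2F and DP factors were called. With at least 10 counts required in every library, 8 of these factors were tested and 2 were called. E2F2 and E2F8 did not pass that filter. At this depth CCND2 could not be measured.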

Other observations

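The genes next to the members were examined by position in the GENCODE annotation. Of the 4 nearest protein-coding neighbours of CDK4, 3 were called lower: MARCHF9, which overlaps CDK4 without shared exon bases (log2 fold change -1.33), AGAP2, 5570 bases away (-0.68), and CYP27B1, 6321 bases away (-0.68). TSPAN31 was not called (0.35). Beside CCND3, TAF8, whose start lies 156 bases away, went from 21.9 ± 3.10 to 10.3 ± 3.33 CPM (-1.08), and C6orf132 was lower as well (-1.42), while BYSL (-0.22) and MED20 (0.46) were not called. Beside CDK6, FAM133B was lower (-0.98), while RBM48 (-0.50), SAMD9 (0.46) and SAMD9L (0.45) were not called. MYEOV (0.15) and LTO1 (0.13) beside CCND1 were not called, and SMIM38 and FGF19 were at or near 0. Beside CCND2, which was not detectable, TIGAR, 2413 bases away, was higher at 58.5 ± 2.88 against 38.4 ± 4.56 CPM (0.61), and PARP11 was higher too (0.71). Among all genes tested, 24.6% were called.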
